A study of Homo sapiens with 3 samples.

Results

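The genes described here are the HLA genes and their partners in antigen presentation, measured in A375, an established human melanoma line that grows attached to the dish. They were chosen by the gene symbol that the platform annotation gives each probe, as every symbol that starts with HLA- plus a list of named genes for the class I light chain, peptide supply, class II loading, transcriptional control and ligands of the receptor NKG2D. The rule found 67 probes of 43 genes, among 30113 probes of 20046 genes with 1 symbol. Of these, 35 genes were detected, each on all 3 arrays, and 8 were not detected on any array.

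Total RNA came from 3 states of the line, with 1 Illumina array each. Reattached cells had first been held in suspension and were then given a culture dish and fresh medium for 1 day. Suspended cells were kept on sterile plastic, without attachment. Adherent cells were grown attached. All states shared the same medium with 10% serum, and no interferon or other agent is named in the labels. The sources used here give neither the time spent in suspension nor the number of cultures behind each RNA. With 1 array per state there is no replicate check, no test was run between states, and every difference given here is one between 2 arrays. In bulk RNA, fewer cells that carry a transcript and less transcript per cell cannot be told apart.

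Class I molecules pair a heavy chain, such as HLA-B or HLA-C, with the light chain B2M, and show peptides made inside the cell to CD8 T cells. Those peptides are cut by the proteasome, moved into the endoplasmic reticulum by the transporter TAP, trimmed by ERAP enzymes and loaded with the help of tapasin. Class II molecules of the HLA-DR, HLA-DP and HLA-DQ families travel with the invariant chain CD74 and show peptides from endosomes to CD4 T cells. Class II is typical of professional antigen-presenting cells, and many melanomas also carry it. Class II promoters are bound by the RFX complex, CREB family factors and the CCAAT-box factor NF-Y, on which the coactivator CIITA assembles. Class I promoters hold a related module that the CIITA relative NLRC5 uses. The peptide supply genes are among the classical targets of interferon.

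Reference promoter sequence is shown for 3 genes that were higher in suspended cells (HLA-B, HLA-DMA and CD74) and for 3 peptide supply genes whose brightest probes were within 1.2-fold of adherent cells (TAP1, TAPBP and PSMB10), since their windows carry different motifs. These 6 were chosen after their values and matches were seen. Each line gives the 200 bases before the RefSeq start site in build GRCh38.p14, 5′ to 3′, all on the minus strand. The windows lie at chr6:31357180-31357379 for HLA-B, chr6:32953098-32953297 for HLA-DMA, chr5:150412911-150413110 for CD74, chr6:32853705-32853904 for TAP1, chr6:33314079-33314278 for TAPBP and chr16:67936851-67937050 for PSMB10. Capitals mark a CCAAT box, searched as ATTGG, or the core of an interferon-stimulated response element, searched as GAAANNGAAA, on either strand.
HLA-B: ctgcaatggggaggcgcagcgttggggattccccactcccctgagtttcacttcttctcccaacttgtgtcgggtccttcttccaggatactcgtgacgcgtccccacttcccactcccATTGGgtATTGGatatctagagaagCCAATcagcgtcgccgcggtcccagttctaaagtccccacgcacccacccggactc
HLA-DMA: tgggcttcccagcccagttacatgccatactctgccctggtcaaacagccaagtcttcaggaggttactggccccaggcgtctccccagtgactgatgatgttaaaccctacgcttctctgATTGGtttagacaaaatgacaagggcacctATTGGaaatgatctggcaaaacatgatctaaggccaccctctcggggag
CD74: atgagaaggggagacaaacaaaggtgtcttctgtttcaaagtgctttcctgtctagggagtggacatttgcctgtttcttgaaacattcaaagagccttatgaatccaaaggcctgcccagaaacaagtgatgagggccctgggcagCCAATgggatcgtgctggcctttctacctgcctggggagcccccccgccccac
TAP1: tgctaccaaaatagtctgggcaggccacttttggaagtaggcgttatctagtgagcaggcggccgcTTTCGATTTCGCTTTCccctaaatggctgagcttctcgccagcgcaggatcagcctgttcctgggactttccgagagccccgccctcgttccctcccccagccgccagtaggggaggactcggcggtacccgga
TAPBP: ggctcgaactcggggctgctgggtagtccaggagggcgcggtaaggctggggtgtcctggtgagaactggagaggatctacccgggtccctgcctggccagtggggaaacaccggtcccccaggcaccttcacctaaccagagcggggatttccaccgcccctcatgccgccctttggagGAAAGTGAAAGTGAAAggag
PSMB10: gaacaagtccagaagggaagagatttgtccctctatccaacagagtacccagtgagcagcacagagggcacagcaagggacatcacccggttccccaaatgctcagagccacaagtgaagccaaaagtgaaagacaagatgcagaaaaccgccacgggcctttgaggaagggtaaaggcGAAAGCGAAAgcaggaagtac
The capitals in the HLA-B, HLA-DMA and CD74 lines are CCAAT boxes. Those in the TAP1, TAPBP and PSMB10 lines are interferon element cores, and in TAP1 and TAPBP overlapping matches run together. TAP1 has a further start site in RefSeq whose 200 bases hold neither motif. A longer window of 300 bases at the printed TAP1 start site also holds a CCAAT box, upstream of the printed bases. The motifs do not split all genes this way. HLA-F, not printed, holds 2 CCAAT boxes and 1 interferon element core in its 200 bases. HLA-F was 1.38-fold higher in suspended than in adherent cells. The part of either motif in the differences was not tested.

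Windows of 300 bases, 250 before and 50 after the start site, were matched for 34 of the 43 genes, with 46 windows in all. No entry was found for CIITA, HLA-DPB2, HLA-DRA, HLA-DRB3, HLA-DRB4, HLA-DRB6, HLA-E, HLA-H and NLRC5. A CCAAT box lay in 4 of 4 class I heavy chain genes, 11 of 12 class II pathway genes and 3 of 9 peptide supply genes. Among all 35116 RefSeq windows of this length 34.6% held one, and among all genes 39.7% did. An interferon element core lay in 7 of 9 peptide supply genes, in B2M, in 1 of 4 heavy chain genes (HLA-F) and in 0 of 12 class II pathway genes. It lay in 3.57% of all windows and 4.38% of all genes. These matches are exact letters in a reference window, so a variant of a motif is not counted, and binding was not measured.

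Each gene is given by its scanner signal, an intensity on a linear scale before normalization, and by the difference between 2 arrays on the normalized log2 scale. A probe was detected at a detection p-value under 0.01, and the brightest detected probe stands for its gene. Probes detected per array numbered 16826 in reattached, 17466 in suspended and 17761 in adherent cells. Their median signal was 247 in reattached, 262 in suspended and 233 in adherent cells, so scanner signals run high on the suspended array in general and the normalized differences carry the comparison. Signals of different probes are not set against each other. HLA genes vary between people, and how well each probe matches the alleles of A375 was not tested.

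**Figure D1:**
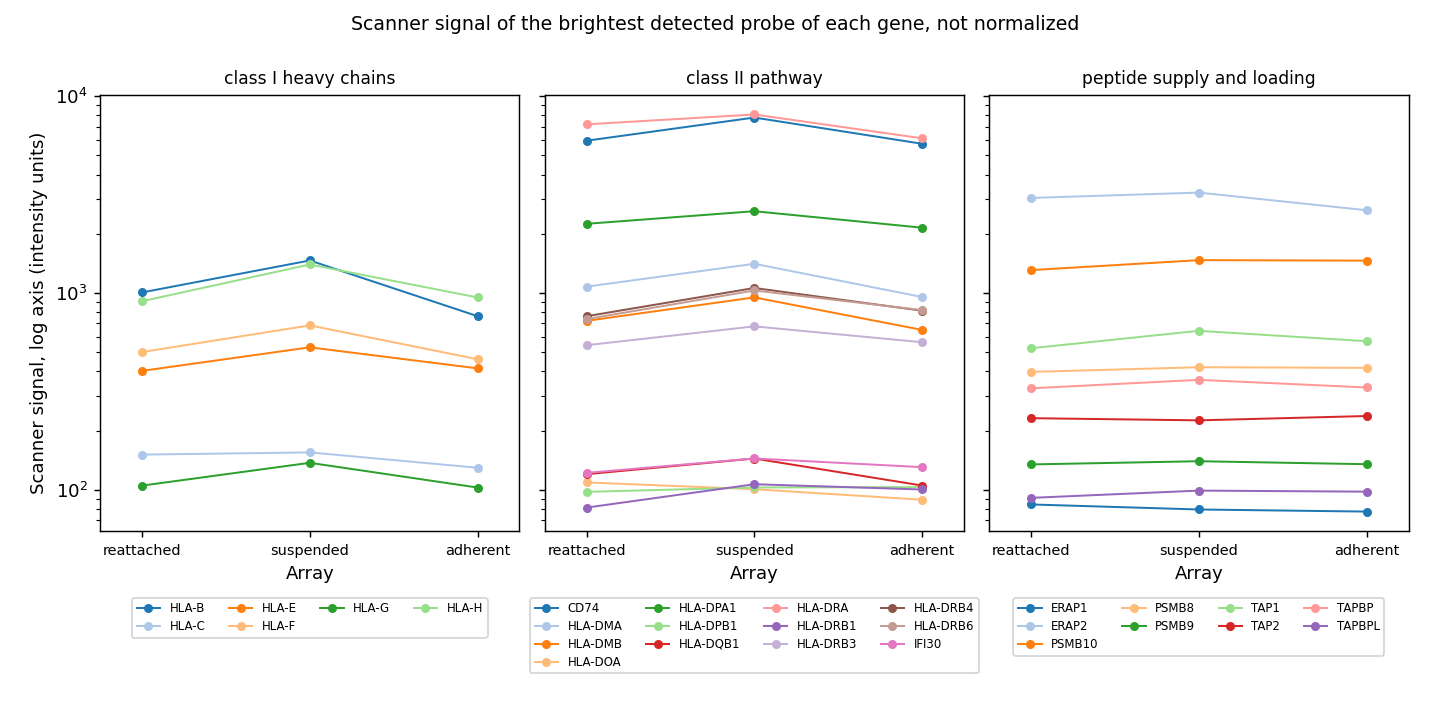
Scanner signal of each gene's brightest detected probe (log axis, intensity units, not normalized) on the reattached, suspended and adherent array, in panels for class I heavy chains, the class II pathway and peptide supply. Each point is 1 array and lines join the points of a gene; HLA-B stands at 1007, 1463 and 762, while TAPBP stands at 328, 362 and 331.

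Suspended against adherent cells was the first comparison, which sets cells held without attachment against attached ones. Class I heavy chain genes and many class II pathway genes were higher in suspended cells, whereas the genes that supply and load peptide were near the adherent level. HLA-B had the largest difference of the 35 genes, 0.85 on the log2 scale or 1.80-fold. At 1.2-fold or more, 11 of the 35 genes were higher in suspended cells and 0 were lower, against 14.8% higher and 13% lower among the 10991 genes compared. The median of the 35 differences was 0.14, against 0.00 for all genes. Scaling the arrays by their medians instead moved the median of all genes to 0.10 and split them into 24.5% higher and 7.13% lower, with 16 of the 35 genes higher and 0 lower. At 1.5-fold, HLA-B was the 1 gene of the 35 on the higher side and 0 were on the lower side, against 2.71% and 2.23% of all genes. At 2-fold 0 of the 35 passed in either direction by their brightest probes, against 0.5% higher and 0.655% lower of all genes.

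**Figure D2:**
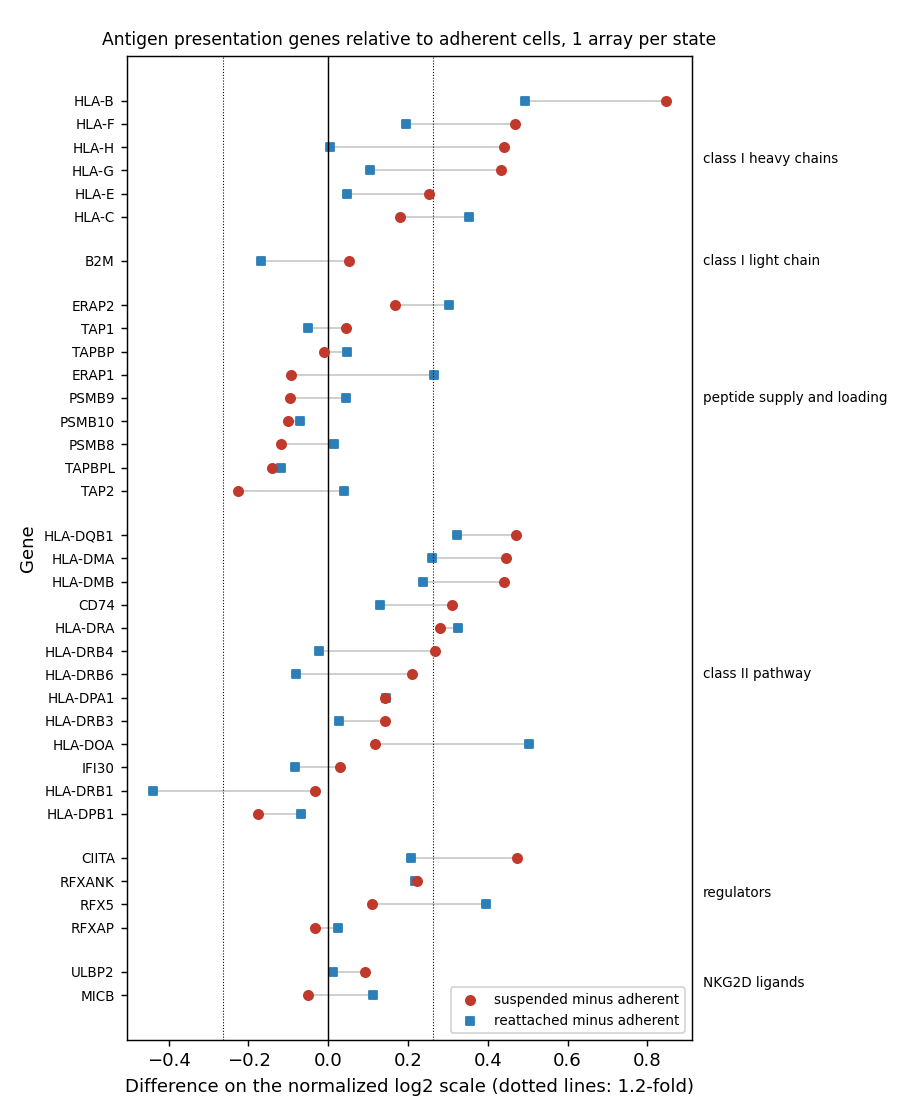
Difference from the adherent array on the normalized log2 scale (horizontal axis) for each of the 35 detected genes, grouped by role. Circles are suspended minus adherent and squares reattached minus adherent, from 1 array per state with no error bars; HLA-B lies at 0.85 and 0.49, and no circle lies beyond the dotted line for 1.2-fold lower.

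All 6 heavy chain genes were above 0 in suspended minus adherent cells, with a median of 0.44, and 4 of them reached 1.2-fold. HLA-B, a classical heavy chain, had a signal of 1007 in reattached, 1463 in suspended and 762 in adherent cells. It ranked at place 100 of 10991 genes by its suspended minus adherent difference. HLA-C, the other classical heavy chain measured, had 151 in reattached, 155 in suspended and 129 in adherent cells. Its difference was smaller, 0.18 or 1.13-fold.

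The less variable heavy chains were also above the adherent level. HLA-F had signals of 501 in reattached, 685 in suspended and 461 in adherent cells, and was 1.38-fold higher in suspended cells on the normalized scale. HLA-G, best known from the placenta, had 105 in reattached, 137 in suspended and 103 in adherent cells, and was 1.35-fold higher in suspended cells. The HLA-G probe was dim, and its difference of 0.43 fell to 0.27 in the lowest setting. HLA-F and HLA-G had the suspended array highest, with the reattached and adherent signals close together. HLA-E, whose protein is read by natural killer cell receptors, had 402 in reattached, 530 in suspended and 414 in adherent cells. Its difference of 0.25, or 1.19-fold, lay just short of 1.2-fold. HLA-H, a pseudogene close in sequence to the heavy chains, had 908 in reattached, 1396 in suspended and 949 in adherent cells, but its probe may read other heavy chain transcripts and its second probe gave 0.07 where the first gave 0.44. Without HLA-H the heavy chain median was 0.43.

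B2M, the light chain that every class I heavy chain needs, was close to the adherent level in suspended cells. Its signal was 5419 in reattached, 7239 in suspended and 6453 in adherent cells, a normalized difference of 0.05 or 1.04-fold. Its second probe gave 0.13.

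By their brightest probes, 0 of the 9 peptide supply and loading genes reached 1.2-fold in either direction between suspended and adherent cells. Their median was -0.10, with 2 genes above 0 and 7 below, and under median scaling the median was -0.01, with TAPBP at 0.11, PSMB9 at 0.02 and ERAP2 at 0.28, past 1.2-fold. ERAP2, which trims peptides, was the highest of them at 0.17, with signals of 3042 in reattached, 3238 in suspended and 2635 in adherent cells. TAP1, a subunit of the peptide transporter, had 524 in reattached, 642 in suspended and 569 in adherent cells and a difference of 0.04. TAPBP, the loading bridge tapasin, differed by -0.01, and its relative TAPBPL by -0.14. All of these lay close to the adherent level. The immunoproteasome subunits PSMB8, PSMB9 and PSMB10 lay at -0.12, -0.10 and -0.10, and the trimming enzyme ERAP1, a dim probe with signals of 84.2 in reattached, 79.4 in suspended and 77.5 in adherent cells, lay at -0.09. Second probes of TAPBP and PSMB9 gave -0.35 and -0.34, past 1.2-fold lower, so for these genes the size rests on the probe.

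TAP2, the other transporter subunit, has no settled direction. Its brighter probe gave -0.23 and its other detected probe gave 0.52 for suspended minus adherent, the widest disagreement among the 11 genes with several probes detected on all arrays.

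In the class II pathway 13 of 17 genes were detected, and 11 of the 13 were above 0 in suspended minus adherent cells. The median was 0.21, 6 genes reached 1.2-fold higher and 0 reached 1.2-fold lower. The genes with the larger differences included both chains of HLA-DM, which exchanges peptides on class II molecules. HLA-DMA had signals of 1077 in reattached, 1408 in suspended and 955 in adherent cells, a difference of 0.45 or 1.36-fold. HLA-DMB had 722 in reattached, 950 in suspended and 649 in adherent cells, a difference of 0.44 or 1.36-fold. Both chains thus had the same order of states and nearly the same size of difference.

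CD74, the invariant chain, had signals of 5942 in reattached, 7793 in suspended and 5734 in adherent cells. Its 3 probes gave suspended minus adherent differences of 0.31, 0.48 and 0.53, all on the higher side. HLA-DRA, the single alpha chain of HLA-DR, had 7197 in reattached, 8076 in suspended and 6111 in adherent cells, with differences of 0.28 and 0.25 from its probes. HLA-DQB1, the beta chain of HLA-DQ, was a dim probe at 120 in reattached, 144 in suspended and 105 in adherent cells. It was 1.39-fold higher in suspended cells, a difference of 0.47 that was 0.30 with background left in.

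The remaining class II genes were nearer to the adherent level. HLA-DPA1, the alpha chain of HLA-DP, had 2247 in reattached, 2604 in suspended and 2148 in adherent cells and a difference of 0.14. HLA-DPB1, its beta chain, was dim at 97.6 in reattached, 103 in suspended and 103 in adherent cells and lay at -0.18. HLA-DP chains therefore lay on opposite sides of 0, with the beta chain probe close to background. HLA-DOA, part of the HLA-DM inhibitor HLA-DO, lay at 0.12, and IFI30, a reductase that opens disulphide bonds of antigens in endosomes, at 0.03.

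The HLA-DRB genes are near-identical in sequence, so a probe named for one may read another, and their values are uncertain. HLA-DRB4 lay at 0.27, HLA-DRB6 at 0.21, HLA-DRB3 at 0.14 and HLA-DRB1 at -0.03 in suspended minus adherent cells, the last being 0.07 under median scaling. HLA-DRB4 passed 1.2-fold narrowly and lay at 0.25 with background left in, short of it. A second HLA-DRB4 probe gave 0.72. A second HLA-DRB6 probe, near background, gave -0.33, and the mean of both HLA-DRB6 probes was -0.03. Without the HLA-DRB genes the class II median was 0.28, with 5 of 9 genes at 1.2-fold or more.

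Among the regulators, CIITA, the class II coactivator, had signals of 140 in reattached, 181 in suspended and 129 in adherent cells. It was 1.39-fold higher in suspended than in adherent cells, a difference of 0.47 on the normalized scale, or 0.33 with background left in. By their brightest probes the RFX complex genes were closer to the adherent level. RFXANK lay at 0.22 by that probe and at 0.09 and -0.04 by its others. RFX5 lay at 0.11, and RFXAP at -0.03, or 0.07 under median scaling. A second RFX5 probe was detected on the suspended array alone, at a signal of 114, against 68.9 in reattached and 68.6 in adherent cells. This dim probe gave 1.07 for suspended minus adherent, and RFX5 lay at 0.59 when its probes were averaged. The brighter RFX5 probe, at 2293 in reattached, 2178 in suspended and 1844 in adherent cells, gave 1.08-fold. NLRC5, the class I coactivator, was not detected on any array.

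Of the NKG2D ligands, which mark stressed cells for natural killer and T cells, 2 of 5 genes were detected. ULBP2 had 219 in reattached, 261 in suspended and 228 in adherent cells and a difference of 0.09. MICB had 279 in reattached, 286 in suspended and 272 in adherent cells and a difference of -0.05, or 0.05 under median scaling. Neither reached 1.2-fold. MICA, ULBP1, ULBP3, HLA-DOB, HLA-DPB2, HLA-DQA2, HLA-DRB5 and NLRC5 had signals of 39.7 to 62.0 on their 9 probes, not above background.

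Reattached against suspended cells was the second comparison, and it shares the suspended array with the first. Most heavy chain genes were lower in reattached than in suspended cells. Most peptide supply genes were slightly higher, though not under median scaling. Of the 35 genes, 4 were at least 1.2-fold higher in reattached cells and 8 at least 1.2-fold lower, against 9.27% higher and 9.72% lower among the 10715 genes compared. Under median scaling the median of all genes was -0.12, with 3.71% higher and 23.1% lower, and 2 of the 35 genes were higher and 15 lower. At 1.5-fold 0 of the 35 genes passed in either direction, against 0.821% higher and 1.09% lower of all genes.

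The 6 heavy chains had a median of -0.30 in reattached minus suspended cells, and 4 of them were at least 1.2-fold lower. With offset 50, with background left in and in the deposited normalized values, 2 of them were, and with background left in HLA-G lay at -0.20 and HLA-F at -0.25. HLA-H lay at -0.44, HLA-B at -0.35, HLA-G at -0.33 and HLA-F at -0.27. HLA-E lay at -0.20. HLA-C was the exception at 0.17, higher in reattached cells. B2M lay at -0.22, or 1.17-fold lower in reattached cells.

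The 13 class II genes had a median of -0.15, with 1 gene at least 1.2-fold higher in reattached cells and 3 at least 1.2-fold lower. The 3 lower genes were all HLA-DRB genes: HLA-DRB1 at -0.41, HLA-DRB4 at -0.29 and HLA-DRB6 at -0.29. HLA-DRB1 lay at -0.22 with background left in, short of 1.2-fold, and HLA-DRB6 at 0.046 when its probes were averaged. HLA-DMA and HLA-DMB lay at -0.19 and -0.20. The higher gene was HLA-DOA at 0.39, with signals of 109 in reattached, 100.7 in suspended and 89.0 in adherent cells. It lay at 0.22 with background left in, and with offset 50, with background left in and in the deposited normalized values 0 of the class II genes passed 1.2-fold higher. Among the regulators CIITA lay at -0.27 and RFX5 at 0.29, or 1.22-fold higher. CIITA lay at -0.19 with background left in, and RFX5 at 0.14 under median scaling and at -0.31 when its probes were averaged, so neither call held throughout.

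The 9 peptide supply genes had a median of 0.13 in reattached minus suspended cells, which became -0.03 under median scaling, and 8 of them were above 0. ERAP1 lay at 0.36 and TAP2 at 0.26, each at least 1.2-fold higher in reattached cells, though the other TAP2 probe gave -0.50. With offset 50, with background left in and in the deposited normalized values, 0 of the 9 genes passed 1.2-fold higher, and the dim ERAP1 lay at 0.17 with background left in. TAP1 lay at -0.09, the only one of the 9 below 0.

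Reattached against adherent cells was the third comparison, and it shares an array with each of the others. HLA-B, HLA-DOA and RFX5 stood above the adherent level after 1 day of attachment, and HLA-DRB1 below it. HLA-DOA and HLA-DRB1 have dim probes: with background left in their differences were 0.29 and -0.23, HLA-DRB1 being short of 1.2-fold. Of the 35 genes, 8 were at least 1.2-fold higher in reattached cells and 1 at least 1.2-fold lower, against 10.4% higher and 8.9% lower among the 10821 genes compared. The median of the 35 differences was 0.05, against 0.02 for all genes. At 1.5-fold 0 of the 35 genes passed in either direction, against 0.887% higher and 1.1% lower of all genes.

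HLA-B was 1.41-fold higher in reattached than in adherent cells. All 6 heavy chains were above 0, with a median of 0.15, and HLA-C, at 0.35 or 1.28-fold, was the other one past 1.2-fold. HLA-DOA was 1.42-fold, HLA-DRA 1.25-fold and HLA-DQB1 1.25-fold higher in reattached cells, and HLA-DRB1 lay at -0.44. Short of 1.2-fold were HLA-C at 0.24 and HLA-DQB1 at 0.20 with background left in, and HLA-DRA at 0.24 and ERAP2 at 0.14 when their probes were averaged. CD74 lay at 0.13 by its brightest probe, at 0.36 and 0.57 by its others, and at 0.35 when averaged, past 1.2-fold. HLA-DRB4 lay at -0.02 by its brightest probe and at 0.42 by a second one. The second HLA-H probe gave -0.26, where its brightest gave 0.01. HLA-DMA lay at 0.26 and HLA-DMB at 0.24, short of 1.2-fold. RFX5 was 1.32-fold higher, and CIITA, at 0.21, was 1.15-fold higher. In peptide supply, ERAP2 at 0.30 and ERAP1 at 0.26 passed 1.2-fold, though ERAP1 lay at 0.13 with background left in, and B2M lay at -0.17.

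By the order of the arrays, 18 of the 35 genes had their highest normalized level on the suspended array, against 34.4% of the 9985 genes detected on all arrays. The adherent array was lowest for 19 of the 35, against 37.2% of those genes. The roles differed in this order: the suspended array was highest for 5 of 6 heavy chains and 8 of 13 class II genes, and lowest for 7 of 9 peptide supply genes, against 36.6% of all genes. The reattached array was highest for 6 of 9 peptide supply genes, against 31% of all genes. These counts are from the main normalization and the brightest probes. Under median scaling the reattached minus suspended median of the peptide supply genes was -0.03, so their order did not hold there. The other TAP2 probe was highest on the suspended array. Since the arrays are single, neighbouring levels within a gene have no measured spread.

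**Figure D3:**
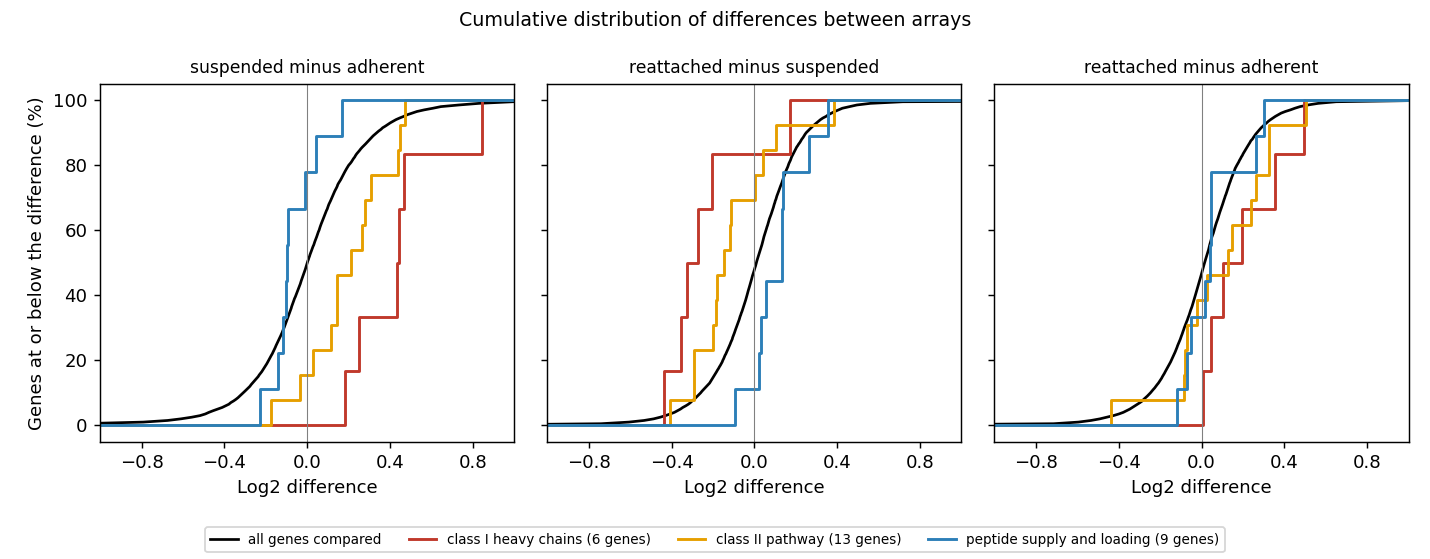
Cumulative share of genes (vertical axis, percent) at or below each log2 difference (horizontal axis), for the 3 comparisons, with all genes compared in black and the roles in colour, 1 array per state. In suspended minus adherent cells the heavy chains (median 0.44) and class II genes (0.21) lie to the right of all genes (0.00) and the peptide supply genes (-0.10) to the left of it at the median; their medians in reattached minus suspended cells are -0.30, -0.15 and 0.13, the last being -0.03 under median scaling.

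How well probes of 1 gene match shows how far a difference depends on the probe. It does not measure the spread between arrays or cultures. Of the 11 genes with several probes detected on all arrays, 7 had probes of the same sign in suspended minus adherent cells, 5 in reattached minus suspended cells and 5 in reattached minus adherent cells. The median range between probes of a gene was 0.24 in suspended minus adherent cells, 0.14 in reattached minus suspended cells and 0.24 in reattached minus adherent cells. The suspended minus adherent differences of all 9 peptide supply genes, by their brightest probes, were smaller than the median range of 0.24. So were HLA-C (0.18), B2M (0.05), HLA-DRB6 (0.21), HLA-DPA1 (0.14), HLA-DRB3 (0.14) and the class II median (0.21). HLA-E (0.25) and HLA-DRB4 (0.27) lay just above it. HLA-B, HLA-E, HLA-G, HLA-DMA, HLA-DMB, HLA-DQB1 and CIITA have no second detected probe in this check. The second HLA-F probe was detected on the suspended array alone, so HLA-H is the only heavy chain gene in the check. In suspended cells CD74, HLA-DRA, HLA-DRB4, HLA-H and B2M had all these probes on the higher side. PSMB9 and TAPBP had all these probes on the lower side.

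**Figure D4:**
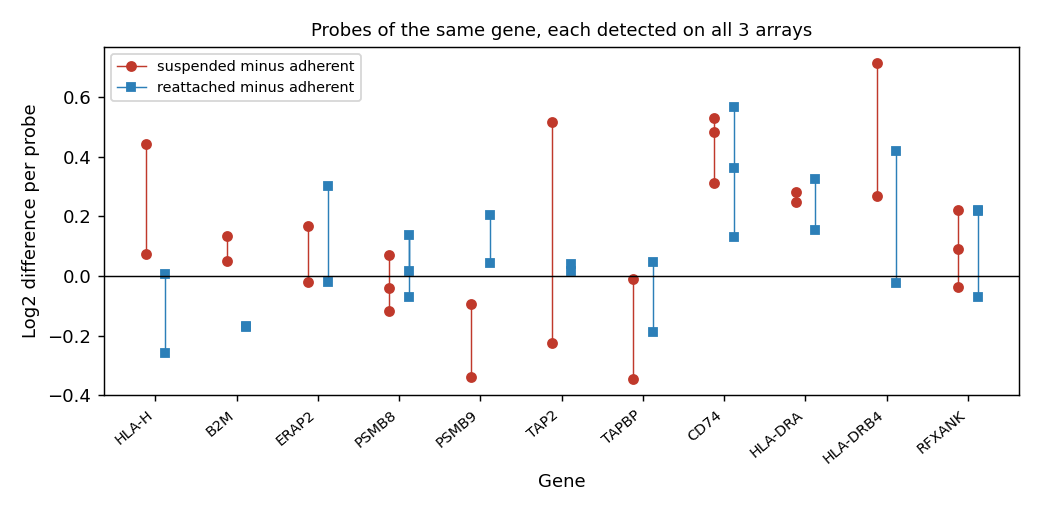
Log2 difference of every probe (vertical axis) for the 11 genes that have several probes detected on all 3 arrays, with circles for suspended minus adherent and squares for reattached minus adherent, and lines joining probes of a gene. The circles of CD74 span 0.31 to 0.53, those of TAP2 span -0.23 to 0.52.

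The wider pathway was read from lists of non-member genes. Of 13 interferon receptor and signalling genes measured, 5 were at least 1.2-fold higher in suspended than in adherent cells. Another 2 were at least 1.2-fold lower. The shares among all genes were 14.8% higher and 13% lower. JAK1, a receptor kinase, lay at 0.43 and SOCS3, a feedback inhibitor, at -0.49. The SOCS3 probe was dim, with signals of 88.3 in reattached, 78.4 in suspended and 89.8 in adherent cells. Of 10 endosomal processing genes, 4 were higher and 0 lower, led by the proteases CTSZ at 0.69 and LGMN at 0.54. Of 12 promoter factors, 1 was higher (NFKB1 at 0.45) and 1 lower (RELA at -0.32), both subunits of NF-kB. In reattached minus adherent cells the promoter factors split into 6 higher and 1 lower, against 10.4% and 8.9% of all genes. Among 12 standard proteasome genes 1 was higher and 0 lower, with PSMB7 at 0.28, and among 9 chaperone, translocation and processing genes of the endoplasmic reticulum 2 were higher and 0 lower, UGGT1 at 0.59 and HM13 at 0.39. The single calls among promoter factors and proteasome genes are near the share over all genes.

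The labelled cell type was set against its markers. Of 8 melanoma markers with a probe, MIA, MITF, S100A1 and SOX10 were detected on all arrays and PMEL, MLANA, TYR and S100B were not detected on any. The signal summed over the 4 detected genes was 5247 in reattached, 6791 in suspended and 4567 in adherent cells, and S100A1 at 0.78 and MIA at 0.46 were higher in suspended cells. Since class II is typical of leukocytes, a list of 14 of their markers was read as well. Of 13 with a probe, 5 were detected, and the signal summed over these 5 was 1384 in reattached, 1567 in suspended and 1349 in adherent cells. CD68 made up most of each sum, at 939 in reattached, 1120 in suspended and 942 in adherent cells. The marker sums are of scanner signals, which run high on the suspended array in general. The probes of AIF1, CORO1A and CD14 were dim. In suspended minus adherent cells AIF1 lay at 0.30, CORO1A at 0.29, CD68 at 0.13, LYZ at -0.12 and CD14 at -0.16. PTPRC, the pan-leukocyte marker, and CD3E, CD79A, ITGAM, CSF1R, FCER1G, TYROBP and LAPTM5 were not above background on any array. Of 4 endothelial markers PECAM1 was detected, on the adherent array, and of 6 fibroblast markers DCN, LUM and PDGFRA were detected, with DCN at -0.31, LUM at -0.42 and PDGFRA, near background, at 0.31 in suspended minus adherent cells. The part of these markers in the HLA differences was not tested.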

How the data were processed

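Intensity values, 1 signal per probe and array with a detection p-value, come from the scanner table the authors deposited, per the file headers. A second deposited intensity table, with array medians of 58.1 each, served as an alternative and no source used here says how it was made. The function neqc (limma 3.58.1, R 4.3.3) corrected background and normalized the arrays, with negative controls inferred from detection p-values, an offset of 16, quantile normalization and log2. Python 3.11.15, numpy 2.4.6, pandas 2.3.3 and matplotlib 3.10.9 did the rest. Of 47323 probes, 30113 had 1 gene symbol, 8 had several and 17202 were unnamed here. A gene entered a comparison if its probe was detected (p under 0.01) on at least 1 of the 2 arrays, and a level not detected was raised to the lowest detected level of that array. With 1 array per state no test was run, so counts use folds of 1.2, 1.5 and 2. Alternatives were offset 50, background left in, median scaling, cyclic loess, the deposited normalized intensity, other detection filters, other probe choices and no floor; leaving out HLA-DRB genes and HLA-H was chosen after seeing the data. The steps were also run on simulated arrays made from the adherent signals, with clearly detected genes changed by 1.5-fold or 2-fold. That run does not bear on differences of 1.2-fold, on dim probes or on variation between cultures. Every detected member gene could be named, and from each other list the 2 genes with the largest suspended minus adherent difference. Members and lists were chosen with earlier results of these data known. The number of arrays limits precision.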

Additional observations from a re-analysis of the deposited data

How the results depend on the processing

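Each setting was compared with the values given above. The tolerance was 0.1 on the log2 scale for medians and 1.5 times for counts. Of the summary values, 189 stayed within it while 24 moved. The brightest probe of each detected member gene was detected on all 3 arrays. Detection p under 0.05, detection on all 3 arrays and no floor therefore left the member values unchanged. Those settings could not show a change, so the tally overstates stability. Over the 12 settings the suspended minus adherent medians, taken relative to all genes, were 0.34 to 0.44 for heavy chains, 0.14 to 0.27 for class II genes and -0.12 to -0.06 for peptide supply genes, so none changed sign. Under median scaling the suspended minus adherent medians were 0.26 for the 35 genes, 0.54 for heavy chains and 0.32 for class II genes, and the reattached minus suspended medians were -0.22 for the 35 genes, -0.43 for heavy chains, -0.27 for class II genes and -0.027 for peptide supply genes, with 2 genes higher and 15 lower. By construction this scaling aligns array medians only. With no detection filter 1 of 43 genes was lower in suspended than in adherent cells, against 11.1% of all genes. With every detected probe counted, 18 of 53 probes were higher and 3 lower in that comparison. The shares over all probes compared were 15.2% and 13.3%. By the same count 14 of 53 probes were lower in reattached than in suspended cells, against 10.1%. In reattached minus suspended cells, offset 50, background left in and the deposited normalized values each gave 1 higher and 4 lower. Of all genes, 4.32% to 5.37% were higher and 5.1% to 6.12% lower under these settings. Background left in gave 5 higher and 0 lower in reattached minus adherent cells, against 4.63% and 4.73% of all genes. Without HLA-DRB genes and HLA-H, 4 of 30 genes were lower in reattached than in suspended cells, against 9.72% of all genes. In reattached minus adherent cells 0 of 30 were lower, against 8.9%, and the class II median was 0.24. Averaging all detected probes reversed reattached minus suspended for HLA-DRB6 (0.046), RFX5 (-0.31) and TAP2 (-0.12). For single genes 937 values stayed within tolerance and 110 moved. Here having no detection filter also left the values unchanged, so this tally overstates stability too. The cause of these changes was not tested. Leaving out an array was not possible with 1 per state. No paired analysis was possible because each state had 1 array. Dim probes near background, such as those of HLA-DOA, HLA-DRB1 and ERAP1 in reattached minus suspended cells, moved by over 1.5 times with background left in.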

Other observations

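A list of other surface molecules that act on immune cells was also read. Of 9 such genes measured, 6 were at least 1.2-fold higher and 1 at least 1.2-fold lower in suspended than in adherent cells, with a median of 0.39. The shares among all genes were 14.8% higher and 13% lower. Under median scaling those shares were 24.5% and 7.13%, and the 9 genes were not counted under that scaling. ICAM1, an adhesion ligand of T cells, had signals of 142 in reattached, 180 in suspended and 107 in adherent cells and a suspended minus adherent difference of 0.85, the same size as that of HLA-B. CD55, which limits complement on the cell surface, had 415 in reattached, 1105 in suspended and 589 in adherent cells. Its suspended minus adherent difference was 0.82 and its reattached minus suspended difference was -1.28, and reattached minus adherent gave -0.46. CD274, PDCD1LG2 and LGALS9 were not detected on any array. Among 8 genes of surface turnover and shedding measured, 3 were at least 1.2-fold higher and 0 lower in suspended cells. The shares over all genes were again 14.8% and 13%. PDIA6 lay at 0.56 and TMEM127 at 0.50. The TMEM127 probe was near background, at 75.9 in reattached, 91.7 in suspended and 70.7 in adherent cells.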
